A study of Mus musculus with 6 samples.

Results

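Cholesterol genes of primary mouse osteoblasts were examined, 28 in all. They were 23 genes of cholesterol synthesis, its sterol control and intracellular sterol transfer (called synthesis genes here), and 5 genes of cholesterol efflux and LXR signaling (efflux genes). They were chosen by name, through the RefSeq accession of each probe, out of 32451 gene or transcript names on the array, of which 23086 were tested. The 28 genes had 40 probes. A probe was tested if it rose well above background, by the flag of the scanner software, on 2 or more of the 6 arrays, which 36 probes did, and every one of the 28 genes kept at least 1 probe. Where several probes of a gene were tested, the gene was represented by the brightest one.

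Cholesterol is made from acetyl-CoA through mevalonate, farnesyl diphosphate, squalene and lanosterol, and cells that hold enough of it shut this pathway down at the level of transcription. The switch is SREBP-2, encoded by Srebf2, a membrane-bound transcription factor that the INSIG proteins retain in the endoplasmic reticulum when sterols are abundant. Surplus cholesterol is instead sensed as oxysterols by the LXR receptors, which switch on the transporters ABCA1 and ABCG1 and the carrier ApoE for the export of sterol, and the ubiquitin ligase IDOL, encoded by Mylip. In bone the pathway is best known as a drug target, since the nitrogen-containing bisphosphonates block farnesyl diphosphate synthase in osteoclasts.

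The arrays measured RNA of primary osteoblasts isolated from the calvaria of newborn CD1 mice aged 2 to 5 days, and no label names a genetic change in any group. Undifferentiated osteoblasts were taken at confluence, differentiated osteoblasts after 30 days in differentiation medium, and the third group after 30 days in the same medium with 100 nM cabozantinib (XL184), an inhibitor of the receptor kinases MET and VEGFR2. The labels and the array methods give 30 days for these cultures, whereas elsewhere in the paper they are named D24. Each group had 2 arrays, and nothing states whether they came from separate isolations, so p values measure the spread between these arrays, which may be technical. The 4 arrays without cabozantinib belonged to one scan and the 2 cabozantinib arrays to another, so that the drug and the scan cannot be told apart in any comparison that involves the drug.

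Signals are given on the log2 scale relative to the 75th percentile of the same array, so that 0 is the level of that percentile. The percentile itself lay between 625 and 1773 arbitrary units, and 58.7% to 72.9% of the spots were well above background. These levels depend on the probe, and they were compared between arrays and never between genes. Replicate arrays differed with a standard deviation over probes of 0.865 in the undifferentiated, 0.727 in the differentiated and 0.641 in the cabozantinib group. A change was called at an adjusted p under 0.05 in limma, fitted on all probes tested. The 95% interval of a member's log2 fold change reached 1.08 to 1.49 to either side, and not 1 of the 28 intervals lay wholly within a 2-fold change in any of the 3 comparisons.

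Promoters of the members were searched for the elements through which SREBP-2 and LXR are known to act, because the genes of each arm share these regulators. The window was the 250 bases before a start site, in the RefSeq table of build GRCm38.p6, which held 23 of the 28 members with 31 windows. Sqle, Fdps, Fdft1, Stard4 and Abcg1 were not matched. The following windows belong to a synthesis gene that was called in no comparison (Hmgcs1), to synthesis genes with low values in differentiated osteoblasts (Lss and Hsd17b7), to the regulator Srebf2, and to efflux genes that were high in them (Abca1 and Nr1h3). They lie at chr13:119690101-119690350 on the plus strand (Hmgcs1), chr10:76531355-76531604 on the plus strand (Lss), chr1:169969206-169969455 on the minus strand (Hsd17b7), chr15:82147019-82147268 on the plus strand (Srebf2), chr4:53159896-53160145 on the minus strand (Abca1) and chr2:91195117-91195366 on the minus strand (Nr1h3, the first of 2 windows). Each is written 5′ to 3′ on the strand of its gene, and capitals mark a match to the SREBP element TCACNCCAC, the NF-Y box CCAAT or the E-box CACGTG on either strand.
Hmgcs1: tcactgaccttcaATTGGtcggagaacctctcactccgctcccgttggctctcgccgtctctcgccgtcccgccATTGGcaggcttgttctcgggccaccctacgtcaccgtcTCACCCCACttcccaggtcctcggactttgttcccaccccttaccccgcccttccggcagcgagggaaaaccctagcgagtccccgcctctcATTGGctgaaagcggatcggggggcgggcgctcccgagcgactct
Lss: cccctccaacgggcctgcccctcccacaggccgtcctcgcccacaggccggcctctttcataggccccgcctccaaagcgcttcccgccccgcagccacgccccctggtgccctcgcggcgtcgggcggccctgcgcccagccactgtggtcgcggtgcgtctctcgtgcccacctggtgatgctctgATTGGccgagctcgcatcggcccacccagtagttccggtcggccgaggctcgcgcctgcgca
Hsd17b7: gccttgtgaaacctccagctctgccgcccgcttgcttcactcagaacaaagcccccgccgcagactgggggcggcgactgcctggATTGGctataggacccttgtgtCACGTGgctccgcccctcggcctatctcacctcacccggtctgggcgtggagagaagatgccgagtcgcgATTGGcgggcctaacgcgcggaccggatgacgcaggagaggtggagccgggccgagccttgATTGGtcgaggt
Srebf2: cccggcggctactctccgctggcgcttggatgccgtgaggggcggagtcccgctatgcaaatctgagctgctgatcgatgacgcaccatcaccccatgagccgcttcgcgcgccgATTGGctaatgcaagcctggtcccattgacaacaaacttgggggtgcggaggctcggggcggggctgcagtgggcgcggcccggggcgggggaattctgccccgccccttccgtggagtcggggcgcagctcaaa
Abca1: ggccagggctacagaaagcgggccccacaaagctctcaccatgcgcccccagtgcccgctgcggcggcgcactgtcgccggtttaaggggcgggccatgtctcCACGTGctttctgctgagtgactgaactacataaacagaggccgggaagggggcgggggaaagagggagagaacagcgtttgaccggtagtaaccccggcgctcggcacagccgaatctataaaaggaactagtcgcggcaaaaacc
Nr1h3: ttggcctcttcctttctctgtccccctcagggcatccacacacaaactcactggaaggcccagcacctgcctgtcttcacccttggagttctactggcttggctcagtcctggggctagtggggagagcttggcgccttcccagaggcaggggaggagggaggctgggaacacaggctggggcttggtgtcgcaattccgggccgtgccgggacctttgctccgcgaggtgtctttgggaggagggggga

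The NF-Y box, which binds the factor that is known to work beside SREBP-2 on sterol promoters, was the most frequent of the searched elements in the synthesis windows. It was found in 18 of the 24 windows of the synthesis genes, whereas 33.8% of all 32851 windows of this length held it. By gene it was found for 18 of the 19 synthesis genes in the table, counting a gene with the box in any of its windows. Among the efflux genes it was found only for Mylip, in 1 of 7 windows. Mvk held 5 boxes, Hmgcs1, Msmo1, Hsd17b7, the first Insig2 window and Mylip held 3 each, and Acat2 was the synthesis gene with none. The SREBP element was found for Hmgcs1 alone, 129 bases before its start site, against 1.05% of all windows. The E-box was found in 4 of the 24 synthesis windows (Hsd17b7, Sc5d, Insig1 and the second Dhcr7 window) and in the Abca1 window, against 6.02% of all windows. The LXR element DR4 was searched only as a direct repeat of AGGTCA or GGGTCA with 4 bases between. In this exact form it was found in no member window and in 0.0335% of all windows, so looser LXR elements are not excluded. A match is only a match of letters, windows of one gene can overlap, and an element that differs by a base or lies elsewhere was not searched for.

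Differentiated osteoblasts were first compared with undifferentiated osteoblasts, to see which of these genes differed after 30 days in differentiation medium. Of the 5 efflux genes, 4 were higher at an adjusted p under 0.05 and none was lower, where 5.26% of all 23081 genes with a value were called higher and 4.45% lower. The genes that rose were Apoe, Abcg1, Nr1h3 and Abca1, that is the sterol carrier, both transporters and the receptor LXR alpha, while Mylip did not pass the test. The other LXR receptor gene, Nr1h2, is not among the 5 and differed by -0.27 (limma, adjusted p = 0.933). The median log2 fold change over the 5 genes was 2.45, compared to 0.111 over all genes.

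Apoe encodes the lipoprotein component that takes up exported cholesterol. Its log2 signal was 2.67 and 2.10 in undifferentiated osteoblasts, 7.26 and 7.74 in differentiated osteoblasts and 7.18 and 7.48 in cabozantinib-treated osteoblasts. Every array in differentiation medium was far above both undifferentiated arrays. The log2 fold change was 5.12 ± 0.513 (SE), a 34.7-fold rise (limma, adjusted p = 0.000495), and 92 of the 23081 genes, Apoe included, had a log2 fold change at least as high. Abcg1, the transporter that passes cholesterol to lipoprotein particles, was at -3.32 and -2.40 at confluence, 1.26 and 1.63 after differentiation and 0.55 and 0.62 with cabozantinib. The groups with and without differentiation medium did not overlap, and the log2 fold change was 4.30 ± 0.50, or 19.7-fold (limma, adjusted p = 0.00103).

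Nr1h3 encodes LXR alpha, the receptor whose known targets include the other efflux genes. Its brighter probe was at 0.16 and -0.88 before differentiation, 1.73 and 2.45 in differentiated osteoblasts and 1.67 and 2.05 in those given cabozantinib. It rose by 2.45 ± 0.566 on the log2 scale (limma, adjusted p = 0.0228), and its dimmer probe moved the same way by 1.85 (adjusted p = 0.0525). Abca1, the transporter that loads cholesterol onto apolipoproteins, was at 1.35 and 1.84 in undifferentiated osteoblasts, 4.17 and 3.19 in differentiated osteoblasts and 3.64 on each array of cabozantinib-treated osteoblasts. It rose by 2.08 ± 0.537, or 4.23-fold (limma, adjusted p = 0.0375). The calls of Nr1h3 and Abca1 were less firm than those of Apoe and Abcg1. After quantile normalization their adjusted p values were 0.0516 and 0.106, and without the filter on dim probes 0.0632 and 0.0960, which left 2 efflux genes called, Apoe and Abcg1. The count was likewise 2 without the second undifferentiated array.

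Mylip stood apart from the other efflux genes. Its log2 signal was -0.34 and 0.27 at confluence and 0.52 and -0.52 after differentiation, and these ranges overlapped. The log2 fold change was 0.04, with a 95% interval from -1.21 to 1.28 (limma, adjusted p = 0.993). On the cabozantinib arrays it was at 1.35 and 0.69, above all 4 other arrays.

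**Figure D1:**
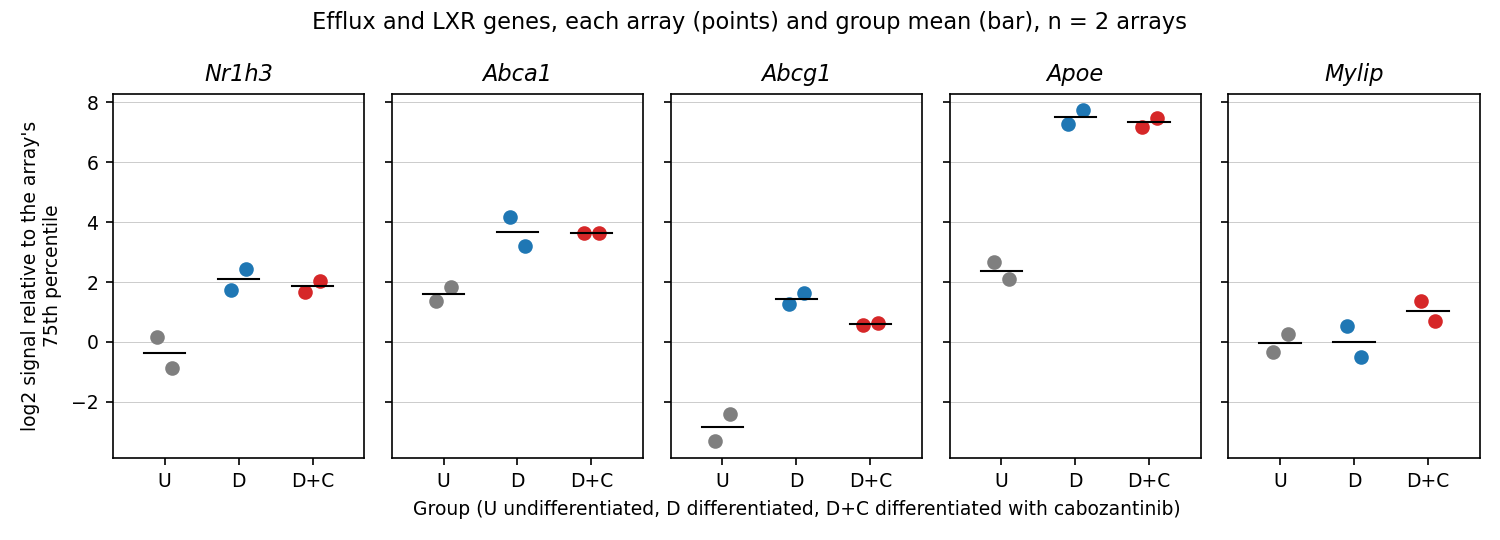
Log2 signal of the 5 efflux and LXR genes relative to the 75th percentile of each array (y axis) in undifferentiated (U), differentiated (D) and differentiated cabozantinib-treated (D+C) osteoblasts, with a point for each array and a bar for the mean of 2 arrays. Nr1h3, Abca1, Abcg1 and Apoe are higher on all 4 arrays in differentiation medium than on both undifferentiated arrays, and Mylip is not.

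Genes known from other cell types rose together with the efflux genes. Apoe, Abca1, Abcg1 and Nr1h3 are known to be well expressed in macrophages and in fat cells, and in bulk RNA more cells of a type and more RNA per cell cannot be told apart. Of 8 macrophage markers tested, 4 rose in differentiated osteoblasts (Adgre1 by 4.04, Aif1 by 3.70, Mpeg1 by 3.28 and Csf1r by 2.84 on the log2 scale, limma, adjusted p from 0.00126 to 0.0183). The marker C1qa was not well above background on any array, so its level was not measured. Ptprc (1.61), Itgam (1.48), Cd14 (1.30) and Lyz2 (-1.28) did not pass the test, and the dimmer probes of Csf1r differed by -0.17 and 0.29. The summed signal of the tested macrophage markers, with the 75th percentile of the array set to 1, was 31.0 to 51.9 on the undifferentiated, 282 to 373 on the differentiated and 276 to 320 on the cabozantinib arrays. Of 8 adipocyte markers tested, 5 rose (Lpl by 4.05, Fabp4 by 4.38 and Pparg by 2.08, Cfd at least 68.1-fold and Adipoq at least 10.8-fold, since neither was well above background on the undifferentiated arrays, limma, adjusted p from 0.000300 to 0.0302), and Lep was not well above background on any array. Cidec (0.33 by its brighter probe), Cebpa (-0.92) and Plin1 (-1.52, well above background on 1 differentiated array) did not pass the test. The dimmer Cidec probe rose at least 4.54-fold from undifferentiated arrays not well above background (limma, adjusted p = 0.00728). The dimmer Lpl probe differed by 0.87 without passing. The summed signal of the tested adipocyte markers was 5.27 to 6.11, 66.3 to 92.4 and 56.5 to 56.6 in the same order of groups.

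Collagen and mineralization markers of osteoblasts were measured in every group, whereas the transcription factors Runx2 and Sp7 were near background in differentiation medium. Runx2 passed the background flag on 2 undifferentiated, 0 differentiated and 1 cabozantinib arrays, and Sp7 on 2, 1 and 1. The summed signal of the list overlapped between the groups, at 270 to 574, 406 to 597 and 502 to 594. These sums are linear, so the brightest probes weigh most, here Col1a1 and Col1a2, which differed by 0.244 and 0.265 with differentiation. Of 10 tested, 4 rose, Phex by 6.38, Bglap2 (osteocalcin) by 5.06, Dmp1 by 3.995 and Ibsp by 2.205. The 1 that fell was Spp1 (osteopontin), by 3.665 (limma, adjusted p = 0.0318). The part that macrophages or adipocytes had in the level of the efflux genes was not tested.

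**Figure D2:**
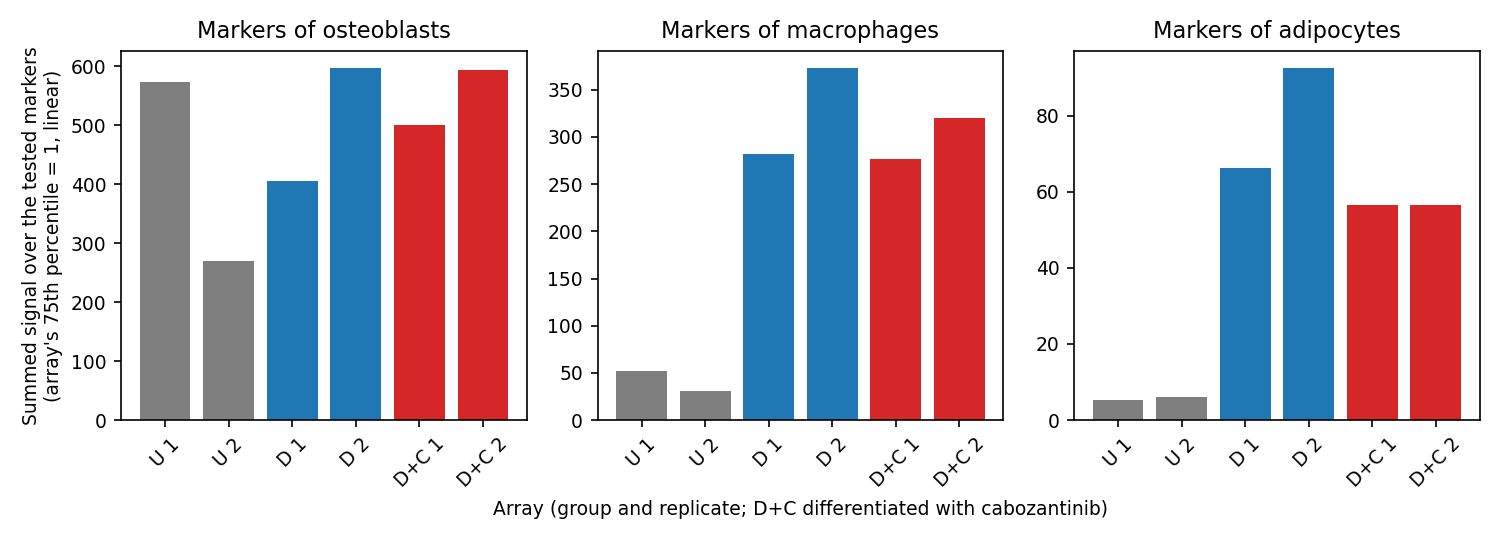
Summed linear signal of the tested markers of osteoblasts, macrophages and adipocytes on each of the 6 arrays (bars), with the 75th percentile of each array set to 1. The macrophage and adipocyte sums are higher on all 4 arrays in differentiation medium than on the undifferentiated arrays, whereas the osteoblast sums overlap. The brightest probes of each list weigh most in its sum.

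The 23 synthesis genes went both ways in the same comparison. There were 11 higher and 12 lower, with a median log2 fold change of -0.04, compared to 0.111 over all genes, and 16 of the 23 lay within 1 log2 unit of no change. The sign of this median was set by single arrays, since it was 0.37 without the first and -0.53 without the second undifferentiated array. By the test 1 gene was higher (Srebf2) and 2 were lower (Fdft1 and Lss), against 5.26% and 4.45% of all genes. Srebf2 and Fdft1 are given here by their brighter probe, and a dimmer probe of each differed in the opposite direction. At an unadjusted p under 0.05 the test also gave Mvd, Lbr, Hsd17b7 and Dhcr7, each lower. The share of all genes at that threshold is not reported here, so these genes cannot be read against it.

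The first steps of the pathway, from Acat2, the cytosolic thiolase, to Fdps, the target of bisphosphonates, held no called gene. Hmgcs1, the HMG-CoA synthase and the gene whose window held the SREBP element, was at 3.87 and 4.01 at confluence, 4.05 and 4.57 after differentiation and 3.96 and 3.92 with cabozantinib. All 6 arrays lay within 1 log2 unit, and the log2 fold change was 0.37 ± 0.489. Acat2 (-0.22), the kinases Mvk (-0.24) and Pmvk (0.38), the isomerase Idi1 (0.62) and Fdps (-0.87) also had intervals that included 0. Mvd, the mevalonate diphosphate decarboxylase, was at -1.41 and -2.40 before differentiation, -4.08 and -3.04 in differentiated osteoblasts and -3.64 and -3.56 in those given cabozantinib. Its ranges did not overlap, but its difference of -1.66 ± 0.581 did not pass (limma, adjusted p = 0.118).

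The 2 called lower genes act at and after the step that commits the pathway to sterols. Fdft1, squalene synthase, was at 0.82 and 1.23 in undifferentiated osteoblasts, -1.96 and -2.04 in differentiated osteoblasts and 0.22 and -0.69 in cabozantinib-treated osteoblasts. The differentiated arrays were lowest and close to each other, and the log2 fold change was -3.03 ± 0.526 (limma, adjusted p = 0.00607). Sqle, squalene epoxidase, which acts between Fdft1 and Lss, was at 4.87 and 4.36 before and 4.71 and 5.30 after differentiation, a difference of 0.39 ± 0.513. Thus Sqle was not called between neighbours that were.

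Lss, lanosterol synthase, closes the sterol ring. It was at -3.28 and -2.39 at confluence, -7.67 and -6.13 after differentiation and -4.65 and -5.11 with cabozantinib. It was not well above background on either differentiated array, so its level there is only a bound, and it was at least 8.32-fold lower than in undifferentiated osteoblasts (limma, adjusted p = 0.00259). Without the second undifferentiated array, Fdft1 (adjusted p = 0.0535) and Lss (0.0666) were no longer called and Srebf2 was the 1 synthesis gene left. Without the first undifferentiated array 6 synthesis genes were called, with Insig1, Lbr and Hsd17b7 added.

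Among the later sterol enzymes no gene was called. Cyp51 (-0.26), the lanosterol demethylase, Tm7sf2 (-0.33), Msmo1 (0.57), Nsdhl (0.42), Ebp (0.19) and Sc5d (-0.04) had intervals that included 0. Hsd17b7, a ketosteroid reductase of the pathway, was at -1.45 and 0.03 before differentiation, -2.52 and -3.53 in differentiated osteoblasts and -1.05 and -1.88 in those given cabozantinib. The differentiated arrays were below all others, with a difference of -2.32 ± 0.656 that lay at the threshold (limma, adjusted p = 0.0545, and 0.0456 without the replicate number as a term). Dhcr7, which makes cholesterol from its last precursor, differed by -1.32 ± 0.539 (limma, adjusted p = 0.188) and Lbr, a sterol reductase of the nuclear envelope, by -1.44 ± 0.641 (limma, adjusted p = 0.234).

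Srebf2, by its brighter probe, was the 1 synthesis gene that rose. This probe was at -1.35 and -1.65 in undifferentiated osteoblasts, 1.64 and 1.23 in differentiated osteoblasts and 1.53 and 1.5 in cabozantinib-treated osteoblasts. The replicates lay close together and the groups far apart, with a log2 fold change of 2.93 ± 0.485 (limma, adjusted p = 0.00475). The other sterol sensors and carriers were not called, with 0.57 for Insig1 and 0.56 for Insig2, which hold SREBP-2 back, and 0.29 for Stard4, which carries sterol through the cytosol.

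**Figure D3:**
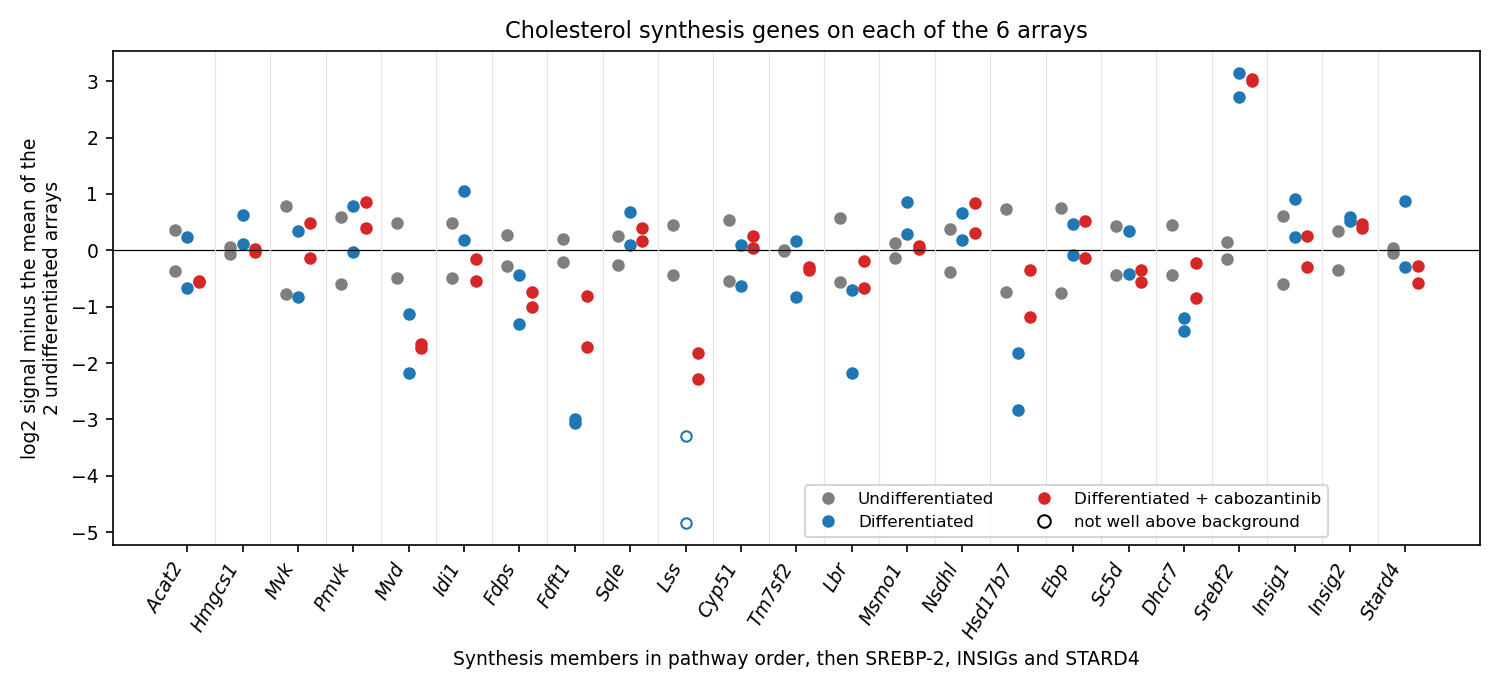
Log2 signal of the 23 synthesis genes (x axis, in pathway order from Acat2 to Dhcr7 and then Srebf2, Insig1, Insig2 and Stard4) on each of the 6 arrays, relative to the mean of the 2 undifferentiated arrays of the same gene (y axis), with open points for arrays on which the probe was not well above background. By the brightest probe of each gene, Fdft1 and Lss are lower and Srebf2 is higher on both differentiated arrays than on both undifferentiated arrays, and most other genes overlap.

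Of the 28 genes, 8 had a second tested probe, which is a check on what the brighter probe measured. In this comparison 5 of the 8 pairs differed in sign. For Srebf2 the dimmer probe moved opposite to the brighter one, with log2 signals of -3.49 and -2.71 at confluence and -5.83 and -5.57 after differentiation, where it was not well above background. It was therefore at least 5.71-fold lower on the differentiated arrays (limma, adjusted p = 0.0675). For Fdft1 the dimmer probe was at -4.57 and -4.97 before and -3.89 and -2.93 after differentiation, a difference of 1.36 (adjusted p = 0.164), against the -3.03 of the brighter probe. The direction of Srebf2 and of Fdft1 thus depended on the probe.

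Averaged over its probes, Srebf2 differed by 0.17 (adjusted p = 0.955) and Fdft1 by -0.83 (adjusted p = 0.409), and Lss, with a single probe, was the 1 synthesis gene called. Second probes of Mvk (-1.71, adjusted p = 0.0644) and Nsdhl (-3.05, adjusted p = 0.0633) were lower where the brighter ones differed by -0.24 and 0.42. Pmvk, with 0.38 and -0.41, and Lbr, with -1.44 and 0.04, also differed in sign. The probes of Tm7sf2 and Nr1h3 moved the same way. Apoe, Abcg1 and Abca1 had 1 probe each.

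**Figure D4:**
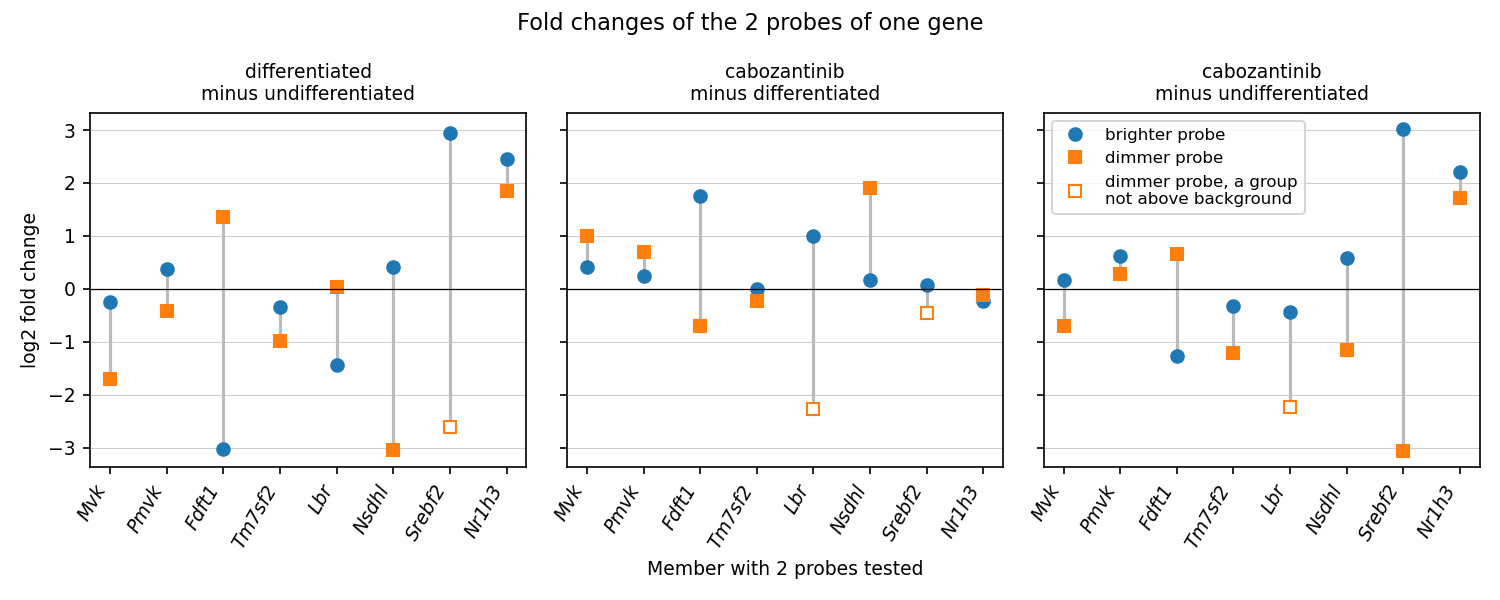
Log2 fold changes of the brighter probe (circles) and the dimmer probe (squares) of the 8 members with 2 tested probes, in the 3 comparisons. Open squares are values with a group that had no array well above background, and their size is not measured. In differentiated against undifferentiated osteoblasts the probes of Srebf2 and Fdft1 lie on opposite sides of 0, and those of Nr1h3 lie close together on the same side.

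Cabozantinib-treated differentiated osteoblasts were then compared with untreated differentiated osteoblasts, which addresses the effect of the drug. No member was called in limma, where 0.121% of all 23080 genes were called higher and 2.55% lower. At an unadjusted p under 0.05 there were 3 synthesis genes, all higher, and no efflux gene. The share of all genes at that threshold is not reported here, so this count cannot be read against it. The adjusted form of the methods' t-test called no member in any comparison, so it cannot decide here. The median log2 fold change was 0.005 over the synthesis genes and -0.17 over the efflux genes, compared to -0.287 over all genes, a shift that was -0.08 after quantile normalization. On both cabozantinib arrays 5 of the 23 synthesis genes lay above both differentiated arrays and 4 lay below, while 13.4% of all genes lay above and 44.2% below.

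The 3 synthesis genes at an unadjusted p under 0.05 were Fdft1, Lss and Hsd17b7, the 3 members with the most negative fold changes between differentiated and undifferentiated osteoblasts, and on all 3 probes both cabozantinib arrays lay above both differentiated arrays. Fdft1 was 1.76 ± 0.526 higher with cabozantinib on the log2 scale (limma, adjusted p = 0.0834). Without the replicate number as a term it was the 1 member called by its brightest probe (limma, adjusted p = 0.0383), where 0.81% of all genes were called higher. Lss was at least 2.02-fold higher (limma, adjusted p = 0.0776), since it was well above background on both cabozantinib arrays and on neither differentiated array. Hsd17b7 was 1.56 ± 0.656 higher (limma, adjusted p = 0.187). Fdft1 and Hsd17b7 were called when either undifferentiated array was left out and when only the 4 arrays compared were fitted. The dimmer Fdft1 probe differed by -0.71, opposite to the brighter one. Both comparisons use the same 2 differentiated arrays, so that their values stand side by side and are not independent.

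By their brightest probes the other synthesis genes ranged from -0.96 for Idi1 to 1.01 for Lbr. The dimmer Lbr probe went the other way, at least 1.09-fold lower, with 1 differentiated and no cabozantinib array well above background. Its adjusted p (limma) was 0.0505, and 0.0231 without the replicate number as a term. Both come from signals that were mostly not well above background. In this comparison 4 of the 8 probe pairs differed in sign. Srebf2 differed by 0.08, with a 95% interval from -1.0 to 1.17.

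The 4 efflux genes that rose with differentiation were not called in this comparison. The difference was -0.03 for Abca1, with a 95% interval from -1.24 to 1.17, -0.17 for Apoe, with an interval from -1.32 to 0.98, and -0.23 for Nr1h3, with an interval from -1.5 to 1.03. Abcg1 was at 0.55 and 0.62 with the drug and at 1.26 and 1.63 without it, so that both treated arrays were lower, by 0.86 ± 0.50 in the mean (limma, adjusted p = 0.358). Mylip went the other way, 1.02 ± 0.555 higher (limma, adjusted p = 0.321). Intervals of this width do not exclude a 2-fold change in either direction for Abca1 or Nr1h3. Of the 8 adipocyte markers tested, 6 had negative log2 fold changes with cabozantinib. Of all 23080 genes, 67.4% had a log2 fold change of -0.009 or lower, so this count alone does not set the markers apart. The median over the 8 was -1.21, compared to -0.287 over all genes. Only Cfd was called lower, by 3.67 on the log2 scale (limma, adjusted p = 0.0474), where 2.55% of all genes were called lower. Fabp4 differed by -2.05, Adipoq by -1.36, Pparg by -1.06 and Cebpa by 1.34 without passing the test. No macrophage marker was called, and the part of either cell type in these values was not tested.

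**Figure D5:**
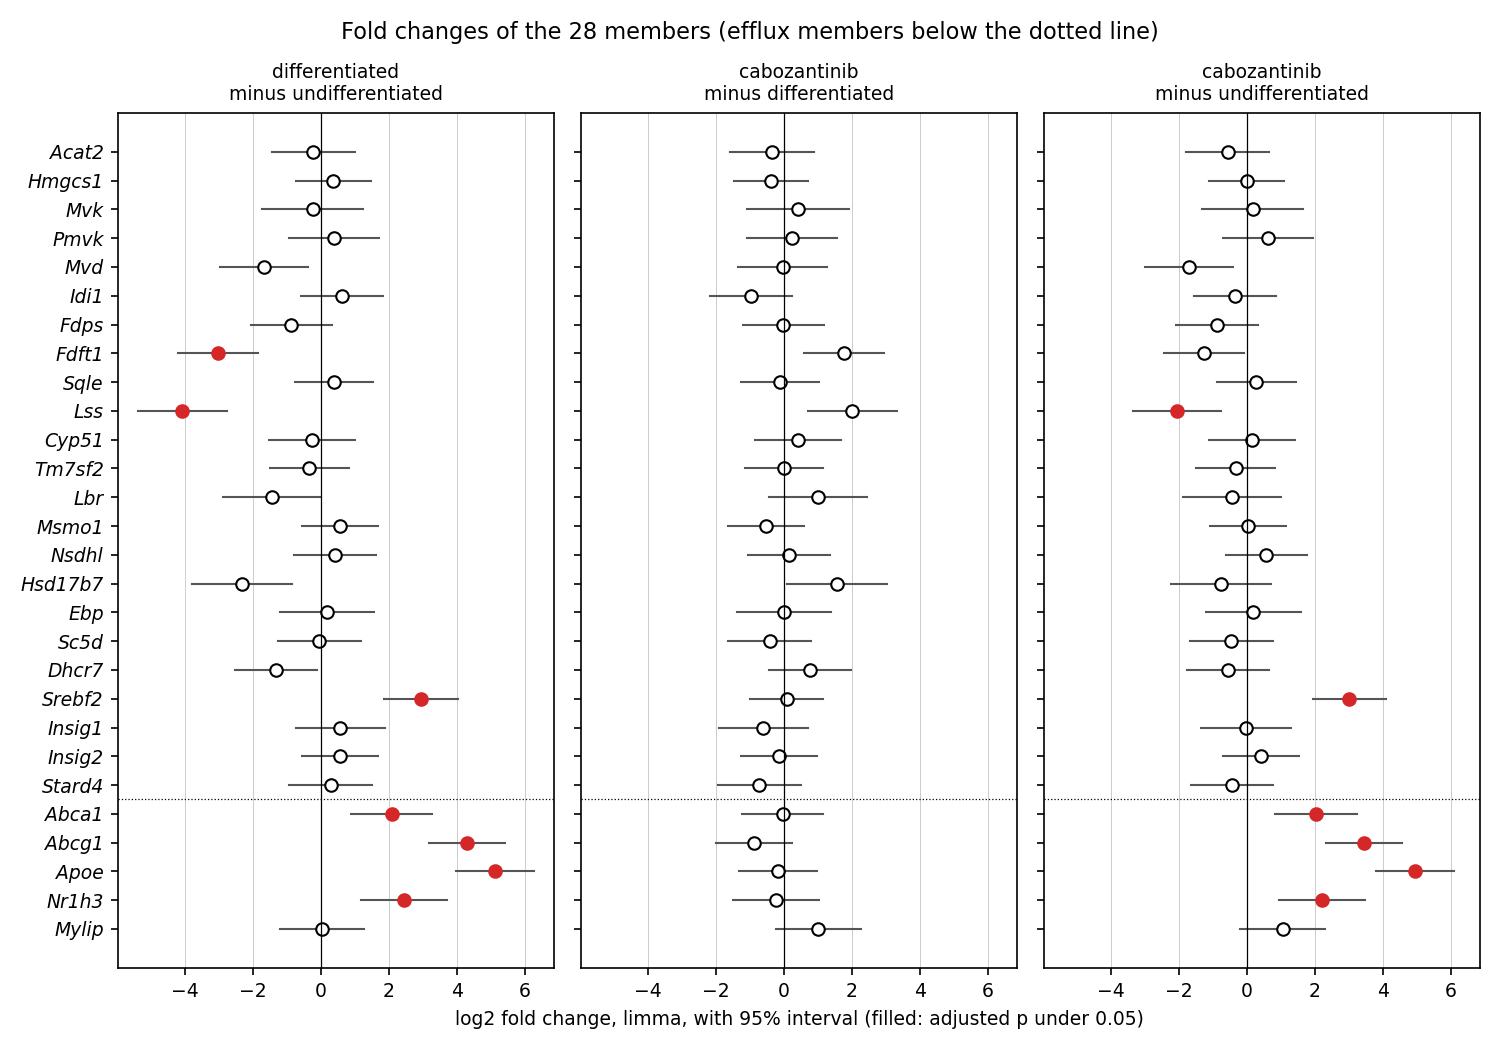
Log2 fold changes of the 28 members by limma (points, filled where the adjusted p is under 0.05) with 95% intervals (lines) in the 3 comparisons, with the efflux genes below the dotted line. Apoe, Abcg1, Nr1h3, Abca1, Srebf2, Fdft1 and Lss are called in differentiated against undifferentiated osteoblasts and no member in cabozantinib against differentiated osteoblasts.

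Cabozantinib-treated osteoblasts were last compared with undifferentiated osteoblasts. The 4 efflux genes called with differentiation were again called higher and none was lower, against 4.68% and 8.71% of all 23084 genes. Apoe was higher by 4.95 ± 0.513 (adjusted p = 0.000820), Abcg1 by 3.44 ± 0.50 (adjusted p = 0.00377), Nr1h3 by 2.22 ± 0.566 (adjusted p = 0.0326) and Abca1 by 2.05 ± 0.537 (adjusted p = 0.0361), all in limma. Mylip was higher by 1.06 ± 0.555 without passing (limma, adjusted p = 0.223). With either cabozantinib array left out, after quantile normalization, or with dim probes kept, 2 efflux genes were called, Apoe and Abcg1.

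Among the synthesis genes Srebf2 was higher, by 3.02 ± 0.485 (limma, adjusted p = 0.00597), and Lss was lower, by 2.05 ± 0.582 (limma, adjusted p = 0.0464). The dimmer Srebf2 probe was lower by 3.06 (limma, adjusted p = 0.0325), with differences of -1.29 in the first and -4.83 in the second replicate, and it was well above background on only 1 of the 2 cabozantinib arrays, so that the size of its difference rests on a value near background. Over the mean of its probes the difference of Srebf2 was -0.02. The dimmer Lbr probe was at least 1.06-fold lower, with 1 undifferentiated and no cabozantinib array well above background. Its adjusted p of 0.0232 (limma) comes from the measured signals, most of them not well above background, and does not test this bound. The Lss call was lost after quantile normalization (adjusted p = 0.209), with dim probes kept (0.104) and without any 1 of the 4 arrays compared (0.0537 to 0.623). No synthesis gene was called without the second cabozantinib array. Mvd differed by -1.70 ± 0.581 (limma, adjusted p = 0.0792, and 0.0451 without the replicate number as a term) and Fdft1 by -1.26 ± 0.526 (limma, adjusted p = 0.132). The median over the synthesis genes was -0.33, compared to -0.354 over all genes.

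Other genes of cholesterol metabolism were read from a list of 28 genes, all tested. With differentiation 2 rose and 2 fell, against 5.26% and 4.45% of all genes, with a median log2 fold change of 0.142, compared to 0.111 over all genes. Nceh1, which hydrolyses stored cholesterol esters, rose by 2.59 ± 0.492 (adjusted p = 0.00925), and Pltp, a phospholipid transfer protein and LXR target, by 2.57 ± 0.591 (adjusted p = 0.0227). Lrp1, an endocytic receptor that binds ApoE, was at -0.29 and -0.03 before and -2.86 and -2.66 after differentiation and fell by 2.60 (adjusted p = 0.0101), and Lpcat3, a phospholipid acyltransferase and likewise an LXR target, fell by 3.79 (adjusted p = 0.00505).

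Between treated and untreated differentiated osteoblasts 1 of the 28 was called, against 2.55% of all genes called lower. It was Cyp27a1, a sterol hydroxylase that makes an oxysterol. It was at -2.22 and -2.37 at confluence, -2.22 and -2.07 after differentiation and -4.51 and -4.38 with cabozantinib. Both cabozantinib arrays were lower than all 4 others, by 2.30 ± 0.483 against differentiated osteoblasts (limma, adjusted p = 0.0474) and by 2.15 ± 0.483 against undifferentiated osteoblasts (limma, adjusted p = 0.0213). These 2 arrays also made up a scan of their own. Nceh1 was higher by 2.41 in the latter comparison (limma, adjusted p = 0.0155).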

How the data were processed

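Arrays of 6 samples in 3 groups of 2 were analyzed. Per the file headers, the authors' scanner files hold spot intensities in arbitrary units from Feature Extraction 11.0.1.1, background-subtracted and detrended, on a linear scale and not scaled between arrays. The deposited table of the authors' log2 values (30439 probes, arrays with nearly equal medians, direction as in the scanner files, r from 0.998 to 1.000) was an alternative. How it was scaled is not given in the sources used here. RefSeq accessions without versions gave 69.1% of the 39429 probes a gene name.

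Control and outlier spots were dropped. The mean log2 intensity of each probe was taken relative to the 75th percentile of its array. The 27236 probes well above background on at least 2 arrays were fitted with limma 3.58.1 in R 4.3.3, with condition and replicate number as terms, since the methods use a paired test. There were 2 residual degrees of freedom, and 7.69 more from pooling. Two-sided P values were adjusted over all probes fitted (Benjamini-Hochberg). The correlation of replicate differences was negative for the undifferentiated arrays with the differentiated (-0.665) and with the cabozantinib arrays (-0.710), and 0.425 between the last 2 groups, so the numbers do not pair the samples throughout. For a group without an array well above background the fold is a bound, the mean of the other group against the higher of the lowest signal well above background on each array and the probe's own signal. The p value printed with a bound is that of the limma fit to the measured signals, and it does not test the bound.

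A member's fold change was followed as a result of its own where its unadjusted p was under 0.05. Other cholesterol genes were named where called in at least 1 comparison, and Nr1h2 was named as the other LXR receptor gene. The rule named 3 further genes of the list whatever their test, which are not reported here. Members and lists were chosen with earlier results of these data known. The marker genes Cd68 and Bglap were not analysed here. Alternatives included quantile normalization, the table of the authors, normexp background correction with an offset of 50, no filter on dim probes or a filter that asks for all 6 arrays, the fit without the replicate number, the fit of only the 4 arrays in question, limma's trend with robust settings, averaging over probes of a gene, the methods' t-test, and each array left out. The slide as a block could not be fitted for the drug, since it holds 1 group, and within 1 slide it equals the fit of those 4 arrays. The functions were tested on simulated data. Promoters were searched and figures drawn with Python 3.11.15, pandas 2.3.3 and matplotlib 3.10.9.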

Additional observations from a re-analysis of the deposited data

How the results depend on the processing

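Of the 349 alternative limma values computed for 22 member fold changes, 280 kept the direction and the side of the threshold, 40 kept the direction but were no longer called, 28 became called and 1 reversed, Srebf2 in cabozantinib against undifferentiated osteoblasts, at -0.021 over the mean of its probes. Apoe and Abcg1 remained called under the 16 limma alternatives in both comparisons with undifferentiated osteoblasts. The methods' t-test, adjusted, called 0 synthesis and 0 efflux members in every comparison, paired or unpaired, in designs with 2 arrays a group. Of 216 alternative counts and medians, 148 stayed within the limits set. The share of all genes called under the alternatives is mostly not reported here, so counts of members under them cannot be read against it.

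In differentiated against undifferentiated osteoblasts 3 synthesis members were called. The count was 1 over the mean of a gene's probes, 7 with limma at more than 2-fold and an unadjusted p under 0.05, 1 with the paired t-test at that criterion, and 1 to 6 with an array left out. The 4 efflux members called became 2 (quantile normalization, the authors' values, normexp, no filter on dim probes, the unpaired t-test at that criterion), 1 (the paired t-test, Abcg1) and 2 to 4 with an array left out. The synthesis median ran from -0.534 to 0.507 with an array left out, and the efflux median of 2.45 reached 3.25 without the first undifferentiated and 2.97 without the first differentiated array.

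In cabozantinib against differentiated osteoblasts the 0 synthesis members called became 1 without the replicate block (Fdft1), 2 with only the arrays compared, 3 at more than 2-fold and an unadjusted p under 0.05, 1 with the paired t-test at that criterion, and 0 to 2 with an array left out. The synthesis median ran from -0.467 to 0.292 with an array left out. The efflux median of -0.17 was -0.045 after quantile normalization and in the authors' values, -0.032 after normexp, and -0.475 to 0.138 with an array left out.

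In cabozantinib against undifferentiated osteoblasts the 2 synthesis members called became 1 under quantile normalization, the authors' values, normexp, no filter, only probes bright on all arrays, averaged probes and both t-tests at 2-fold, 4 with limma at that criterion, and 0 to 3 with an array left out. The synthesis median of -0.33 was -0.04 after quantile normalization and in the authors' values, -0.147 after normexp, -0.177 for probes bright on all arrays, -0.304 over the mean of probes, and -0.327 to 0.029 with an array left out. The 4 efflux members became 2 under the first 4 of these settings and 0 with the paired t-test, with 2 to 5 when an array was left out, and their median ran from 1.95 to 3.01 with an array left out.

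With the undifferentiated replicate numbers exchanged, added after the data were seen, the replicate block called 7, 3 and 5 synthesis members and 4, 1 and 5 efflux members in the 3 comparisons in this order. Dropping the replicate block changed no other count of calls by over 1.5 times. With 2 arrays a group, a change of about 2.32-fold is the median reach of a member's 95% interval, and signal near background limits Lss and the dim probes of Srebf2 and Lbr.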
